A study of Rattus norvegicus with 9 samples.

Results

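Known piRNAs of the rat that were detected in the CA1 field of the hippocampus, and that stand outside the 9 known piRNAs left out here by name, are described in the following. They are the entries of the deposited piRNA table that carry a catalogue name of the form rno_piR and whose mean over the 9 libraries was at least 1 normalised tag. There were 72 such known piRNAs among 5794 entries in all. The table lists 512 known piRNAs, of which 95 were above 0 in some library and 81 had a mean of at least 1, before the 9 names were removed. The remaining 5282 entries are predicted piRNAs. Because the mean level chose the 72, their levels are a description, and the 9 names left out were themselves picked with comparisons of these libraries in view.

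Small RNA was sequenced from the CA1 field of adult male Wistar rats aged 7 to 8 weeks, in 3 groups of 3 libraries. Sham is the control group. The group tGCI26h had transient global cerebral ischemia and is labelled with hour 26. HPC0h is labelled with hour 0, and its abbreviation is not spelled out. The labels do not say whether a library is 1 animal or a pool, so the p-values below measure only the spread between these libraries. The values are tag counts that the authors scaled to nearly equal totals and rounded to whole numbers. Only small RNAs were in the table, so the labelled tissue could not be checked against marker genes.

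PIWI-interacting RNAs, or piRNAs, are small RNAs that guide PIWI proteins to transposon transcripts and other targets, and they are best known from the germline, where many begin with U. Partners made by the ping-pong cycle tend to carry an A at position 10. Catalogues of piRNAs built from the length of reads can also hold pieces of other small RNAs of similar length, such as transfer RNAs, small nucleolar RNAs and microRNAs. Transfer RNA genes carry an internal promoter element, the A box, near the 5′ end of the RNA. Small nucleolar RNAs of the C/D class, which guide the 2′-O-methylation of ribosomal RNA, carry a C box near the 5′ end and a D box near the 3′ end.

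The libraries did not resemble each other equally. In 7 of them the column heading holds 3 numbers (Sham a, Sham b, tGCI26h a, tGCI26h b, HPC0h a, HPC0h b and HPC0h c), and these are called the numbered libraries. The other 2, Sham u and tGCI26h u, have headings with no number. Over the 72 known piRNAs, Spearman's rho lay between 0.961 and 0.979 for the 5 pairs of numbered libraries of the same group and between 0.946 and 0.983 for the 16 pairs of different groups. Sham u reached only 0.486 to 0.547 with the numbered libraries, tGCI26h u lay between -0.280 and -0.241, and the unnumbered pair stood at 0.0323. Of the 72, 38 were above 0 in Sham u and 17 in tGCI26h u, against 58 to 63 in each numbered library. Library totals were 961372 to 992081 tags in all 9, and raw read numbers are not given in the sources used here. Each comparison is therefore given with all 9 libraries and with the numbered ones alone.

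The sequences fall into recognisable kinds, and the leading known piRNA of each is shown because the sequence itself tells the kinds apart. In the microRNA kind, capitals mark the run shared with a mature rat microRNA of RefSeq (GRCr8), in the A box kind they mark the A box, in the next kind the C box (UGAUGA) or D box (CUGA within the last 8 bases), and in the adenosine kind a run of at least 10 A. The fifth is a triplet repeat. The last held none of these motifs and matched no RefSeq sequence searched, but it shared a run of at least 16 bases with 7 predicted entries.
rno_piR_012738: UUGGAGUUCAUGCAAGUUCUAACCA
rno_piR_005598: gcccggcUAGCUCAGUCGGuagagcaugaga
rno_piR_005700: ggagaUGAUGAacugacucagcCUGAcc
rno_piR_028562: uauuuAAAAAAAAAAAAAAAAgacucuuac
rno_piR_000962: gaggaggaggaggaggaggaggaggag
rno_piR_000685: cgcuaaaccauucguagacgaccugcuuc

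By these features 5 of the 72 were of the microRNA kind, 19 held an A box, 17 held a C box or D box, 7 were found in at least 3 promoter windows, 2 held the run of A and 22 held none of these. The microRNA kind held 19.9% of the summed mean tags of the 72, the A box kind 21.0%, the C or D box kind 16.8%, the promoter repeats 1.05%, the runs of A 0.909% and the rest 40.4%. Motifs were searched on the strand of the entry only, and a match describes letters, not a source or a function. Transfer RNA, ribosomal RNA and C/D small nucleolar RNA sequences were not searched here.

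Compared with the catalogue they come from, the 72 had fewer first U bases. A first U was present in 29 of 72 (40.3%), against 330 of the 417 known piRNAs that stood at 0 or blank in every library (79.1%) and 302 of the 679 predicted entries of 26 to 32 nt with a mean of at least 1 (44.5%). An A at position 10 was present in 21 of 72 (29.2%), in 33.3% of the 417 and in 19.0% of the 679. Both together occurred in 12 of 72 (16.7%), in 25.4% and in 8.98%. An A box was found in 26.4% of the 72, against 4.56% of the 417 and 5.45% of the 679. A C box or D box was found in 18 of 72 (25%), which includes rno_piR_000999 of the promoter repeats, against 11.5% and 4.57%. The 72 were 20 to 32 nt long with a median of 29 nt, the same median as the 417, and 63 of them measured 26 to 32 nt. Among these 63, of the same lengths as the 679, a first U was present in 36.5% and an A at position 10 in 27%. Both together occurred in 15.9% of the 63, an A box in 30.2% and a C box or D box in 25.4%. These shares are descriptions without a test, since entries of 1 family share sequence.

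**Figure D1:**
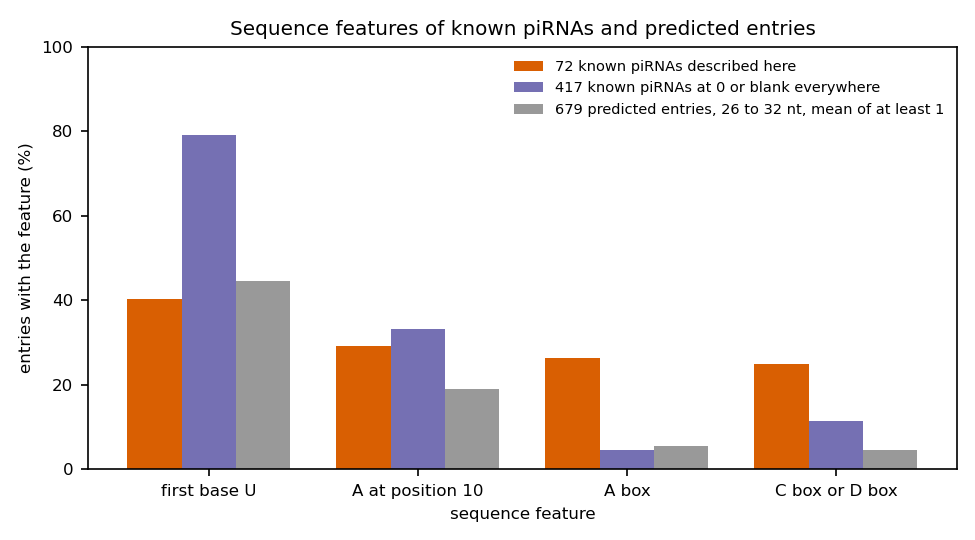
Share of entries (y axis, %) with each of 4 sequence features (x axis) among the 72 known piRNAs described here, the 417 known piRNAs at 0 or blank in every library and the 679 predicted entries of 26 to 32 nt with a mean of at least 1. The first base is U in 40.3%, 79.1% and 44.5%, while the A box is found in 26.4%, 4.56% and 5.45%.

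The 5′ ends show the difference at the level of letters. Below, the capitals mark the first base and position 10 of rno_piR_011541, which has both U and A there, of rno_piR_000685, which has only the A, and of rno_piR_005595, which has neither.
rno_piR_011541: UcagucgguAgagcaugagacucuuaaucu
rno_piR_000685: CgcuaaaccAuucguagacgaccugcuuc
rno_piR_005595: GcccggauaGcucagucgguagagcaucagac

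In all, 9 sets of known piRNAs shared a run of at least 16 bases within the set, so their members are not independent measurements. The set with the most tags had 6 members, rno_piR_005598, rno_piR_005595, rno_piR_011541, rno_piR_000606, rno_piR_005597 and rno_piR_000690, whose means sum to 773.8 tags. The 4 shown here have the same A box, in capitals, and differ in length and in letters on either side of it.
rno_piR_005598: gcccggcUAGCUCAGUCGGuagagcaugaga
rno_piR_005597: gcccggcUAGCUCAGUCGGuagagcauca
rno_piR_005595: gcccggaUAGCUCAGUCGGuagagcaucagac
rno_piR_000606: cccggaUAGCUCAGUCGGuagagcaucag
The second set, led by rno_piR_005901 with rno_piR_005900 and rno_piR_008131, summed to 391.6 tags. The other 7 sets are led by rno_piR_001414, rno_piR_000962, rno_piR_000127, rno_piR_005778, rno_piR_000999, rno_piR_000219 and rno_piR_006831. Values were identical in all 9 libraries for rno_piR_005778 and rno_piR_005781, which share 30 bases, and for rno_piR_000999, rno_piR_002100 and rno_piR_006907, which share 19 to 23. How reads that match several entries were counted is not given in the sources used here, so levels within a set are uncertain.

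The most abundant known piRNA varied 1.51-fold between the lowest and the highest numbered library. rno_piR_000685, which held none of the features, was at 811 and 772 tags in Sham a and b, 988 and 749 in tGCI26h a and b, and 940, 872 and 656 in HPC0h, with 1057 in Sham u and 4337 in tGCI26h u. Its ranges in the 3 groups overlapped in the numbered libraries, and the value in tGCI26h u stood above all others. rno_piR_005787, also without a feature, was at 398 and 340 in Sham a and b, 526 and 521 in tGCI26h a and b, 533, 577 and 321 in HPC0h, 20 in Sham u and blank in tGCI26h u. It was lowest in the 2 libraries in which the former was highest. It shared a run of at least 16 bases with 29 predicted entries, and rno_piR_008639, at 2 to 6 tags in the numbered libraries, shared one with 35. Their sequences are shown without capitals.
rno_piR_005787: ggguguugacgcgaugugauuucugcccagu
rno_piR_008639: uuggugacucuagauaaccucgggccgauc

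The opposite profile was shown by rno_piR_000119, with a mean of 266.4 tags. It was at 1 to 4 tags in all 7 numbered libraries, at 396 in Sham u and at 1987 in tGCI26h u. Its place among the 10 most abundant comes from the unnumbered libraries alone.
rno_piR_000119: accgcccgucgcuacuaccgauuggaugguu

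**Figure D2:**
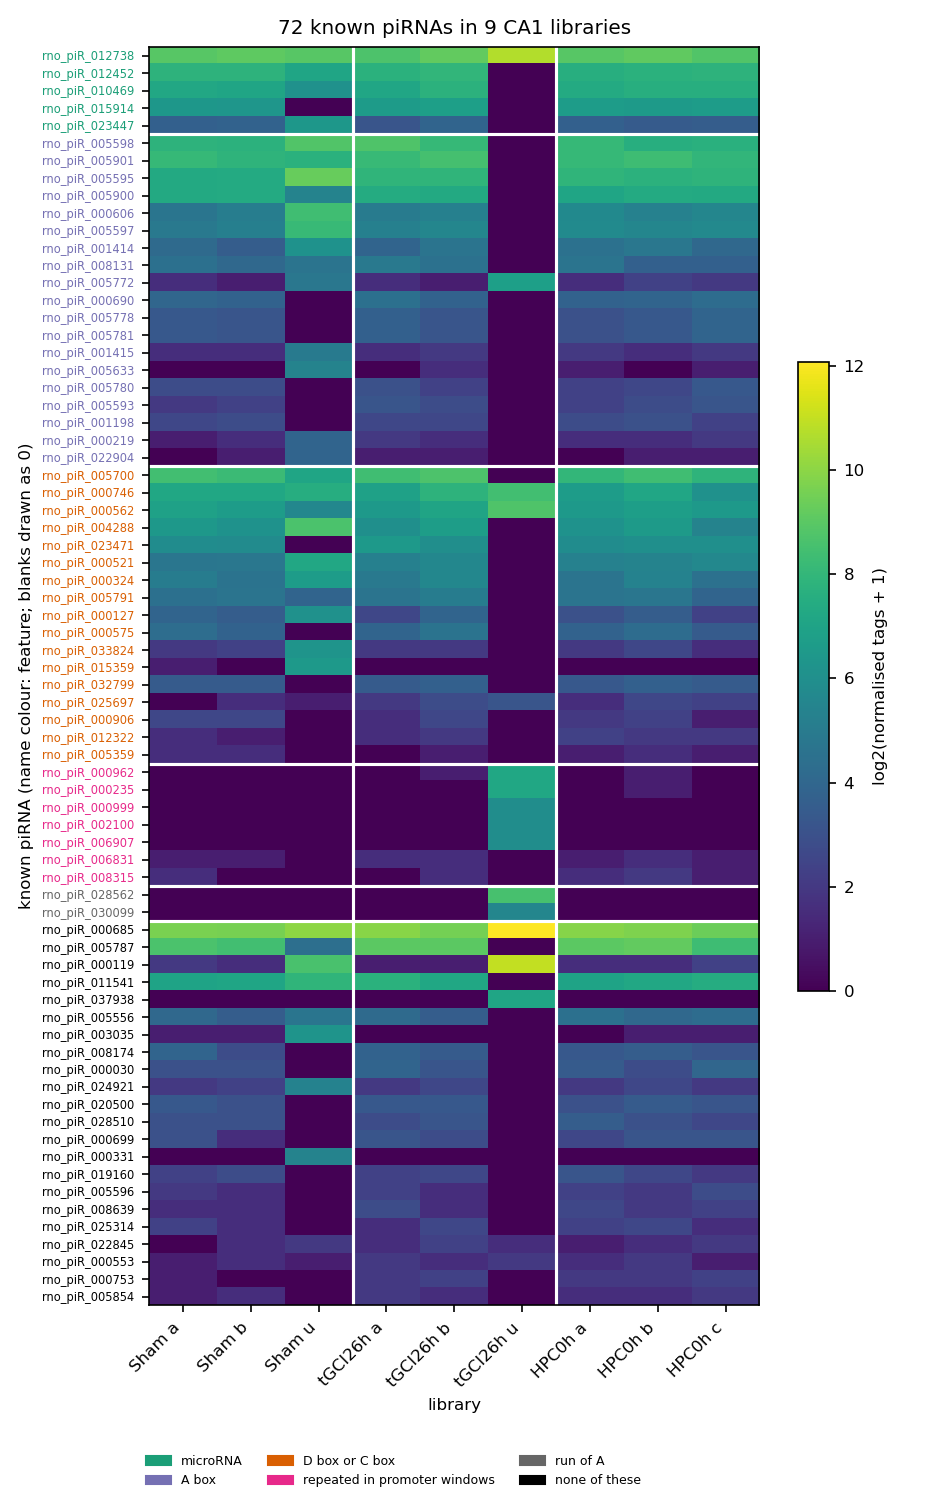
Levels of the 72 known piRNAs (rows, grouped by sequence feature and ordered by mean within it) in the 9 libraries (columns), as log2(normalised tags + 1) with blanks drawn as 0. The 7 numbered libraries look alike, while 34 rows are blank in Sham u and 55 in tGCI26h u.

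Of the known piRNAs, 5 hold all of a microRNA or, in the case of rno_piR_023447, all but its last base. MicroRNAs guide Argonaute proteins to messenger RNAs through the seed, bases 2 to 8, shown in capitals in the RefSeq mature sequences, and no 2 of the 5 share a seed.
rno-miR-3068-5p: uUGGAGUUcaugcaaguucuaacca
rno-miR-17-5p: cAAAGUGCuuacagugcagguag
rno-miR-34b-5p: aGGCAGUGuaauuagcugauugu
rno-miR-672-5p: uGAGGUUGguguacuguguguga
rno-miR-652-3p: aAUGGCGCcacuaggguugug
rno_piR_012738 is the whole of rno-miR-3068-5p (25 bases, GRCr8 chr6:112811918-112811942, minus strand), which RefSeq lists under the gene symbol Snora58. rno_piR_012452 begins with the 23 bases of rno-miR-17-5p and adds 1 base that is present in the Mir106a hairpin (chrX:137343570-137343647, minus strand) but not in that of Mir17 (chr15:98587848-98587931, plus strand). rno_piR_010469 holds the 23 bases of rno-miR-34b-5p from its second base on, and all of its 30 bases lie in the Mir34b hairpin (chr8:60306609-60306692, minus strand). rno_piR_015914 is the whole of rno-miR-672-5p (chrX:73192351-73192373, minus strand). rno_piR_023447 is rno-miR-652-3p (chrX:111140129-111140149, plus strand) without its last base. miR-17 belongs to a microRNA cluster known for promoting proliferation, and the miR-34 family is a target of the p53 protein.
rno_piR_012452: CAAAGUGCUUACAGUGCAGGUAGc
rno_piR_010469: uAGGCAGUGUAAUUAGCUGAUUGUagugcg

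The microRNA kind varied little among the numbered libraries. rno_piR_012738, second by mean, was at 496 and 538 tags in Sham a and b, 418 and 571 in tGCI26h a and b, and 491, 557 and 450 in HPC0h, with 484 in Sham u and 1627 in tGCI26h u. The ranges of the 3 groups overlapped both without tGCI26h u and with it, although its value stood above all others. rno_piR_012452 was at 225 and 221 in Sham a and b, 207 and 243 in tGCI26h a and b, and 188, 209 and 220 in HPC0h, with 136 in Sham u and a blank in tGCI26h u. Over the numbered libraries the coefficient of variation ran in a range of 6.98% to 35.2% with a median of 20.2% over the 29 known piRNAs with a numbered mean of at least 10. rno_piR_010469 was at 151 and 136 in Sham a and b, 141 and 217 in tGCI26h a and b, and 167, 188 and 187 in HPC0h, with 68 in Sham u and a blank in tGCI26h u. All 3 of its HPC0h values were above all 3 of its Sham values. Summed, the kind was at 966 and 988 tags in Sham a and b, 872 and 1156 in tGCI26h a and b, and 959, 1058 and 968 in HPC0h.

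Among the 19 known piRNAs with an A box, most tags belonged to the first 2 sets. rno_piR_005598 was at 225 and 219 tags in Sham a and b, 428 and 271 in tGCI26h a and b, and 268, 189 and 204 in HPC0h, with 450 in Sham u and a blank in tGCI26h u. rno_piR_005595 was at 161 and 168 in Sham a and b, 236 and 235 in tGCI26h a and b, and 240, 214 and 232 in HPC0h, with 625 in Sham u and a blank in tGCI26h u. In the numbered libraries the Sham values of the latter lay below all 5 others, and Sham u lay above them. rno_piR_005901 was at 269 and 233 in Sham a and b, 282 and 370 in tGCI26h a and b, and 272, 323 and 244 in HPC0h, with 209 in Sham u and a blank in tGCI26h u. The other A box entries included the leaders of 3 small sets, rno_piR_001414 with 11 to 27 tags in the numbered libraries and 71 in Sham u, rno_piR_005778 with 7 to 14 and a blank in Sham u, and rno_piR_000219 with 1 to 3 and 14 in Sham u. All 3 were blank in tGCI26h u. Summed over the 19, the A box kind was at 958 and 933 in Sham a and b, 1304 and 1220 in tGCI26h a and b, 1118, 1073 and 1043 in HPC0h, 2162 in Sham u and 113 in tGCI26h u. The sum ordered the numbered groups without overlap, Sham lowest and tGCI26h highest, and the unnumbered libraries were at the 2 extremes in the reverse order. Over all 2608 entries tested in the numbered libraries, 70.4% were above Sham in tGCI26h and 78.2% in HPC0h. Between the treated groups, 53.8% were higher in HPC0h than in tGCI26h. The sum also draws on sets that share sequence. No test was made on these sums, since the list was chosen with results known.

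A short A box entry also showed how a catalogue name can hold few of the tags of its sequence family. rno_piR_001198 was at 4 to 7 tags in the numbered libraries and blank in Sham u and tGCI26h u, while a predicted entry that shares a run of at least 16 bases with it, 37 nt long, had a mean of 1130 tags.
rno_piR_001198: ucccuggUGGUCUAGUGGuuaggauuc

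The C or D box kind differed in how it spread over libraries. rno_piR_005700, with both boxes, was at 344 and 296 tags in Sham a and b, 328 and 419 in tGCI26h a and b, and 254, 328 and 231 in HPC0h, with 137 in Sham u and a blank in tGCI26h u. rno_piR_000746, with a D box, was at 146 and 144 in Sham a and b, 120 and 222 in tGCI26h a and b, and 102, 140 and 69 in HPC0h, with 184 in Sham u and 339 in tGCI26h u. All 3 HPC0h values of the latter were below all 3 Sham values. rno_piR_000562 was at 119 and 103 in Sham a and b, 90 and 131 in tGCI26h a and b, and 93, 109 and 88 in HPC0h, with 48 in Sham u and 429 in tGCI26h u. The 3 groups of this entry overlapped. rno_piR_000127, which leads a set of 2, was at 14, 11 and 68 in Sham, 5, 14 and blank in tGCI26h, and 7, 11 and 4 in HPC0h. Their sequences end in the D box and 1 or 2 further bases.
rno_piR_000746: cugaaaugaagagaaaacucucugCUGAuc
rno_piR_000562: ccacugugcugaaacucacauugCUGAc
rno_piR_000127: accugugaugucuucaaaggaaccaCUGAu
Summed over the 17, the kind was at 887 and 791 in Sham a and b, 822 and 1135 in tGCI26h a and b, 706, 904 and 614 in HPC0h, 1276 in Sham u and 776 in tGCI26h u, and the 3 groups overlapped.

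In single numbered libraries, most but not all of the C or D box kind had the same high and low points. Of its 10 entries with a numbered mean of at least 10, 7 had their highest numbered value in tGCI26h b and 7 their lowest in HPC0h c. Of all 1071 entries of the table with such a mean, 10.8% were highest in tGCI26h b and 18.5% lowest in HPC0h c. Among the exceptions, rno_piR_000521 was highest in HPC0h c, at 49 tags, and rno_piR_023471, with a C box, was highest in tGCI26h a, at 90. All 5 of the microRNA kind were also highest in tGCI26h b, whereas the 9 A box entries were highest in tGCI26h a (4), HPC0h a (3), tGCI26h b (1) and HPC0h b (1). Over the 29, the highest value was in tGCI26h b for 13 and the lowest in HPC0h c for 9. The highest value was a median of 1.80 times the lowest. These libraries share a group with others that did not stand out in this way, and what sets them apart was not tested.

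**Figure D3:**
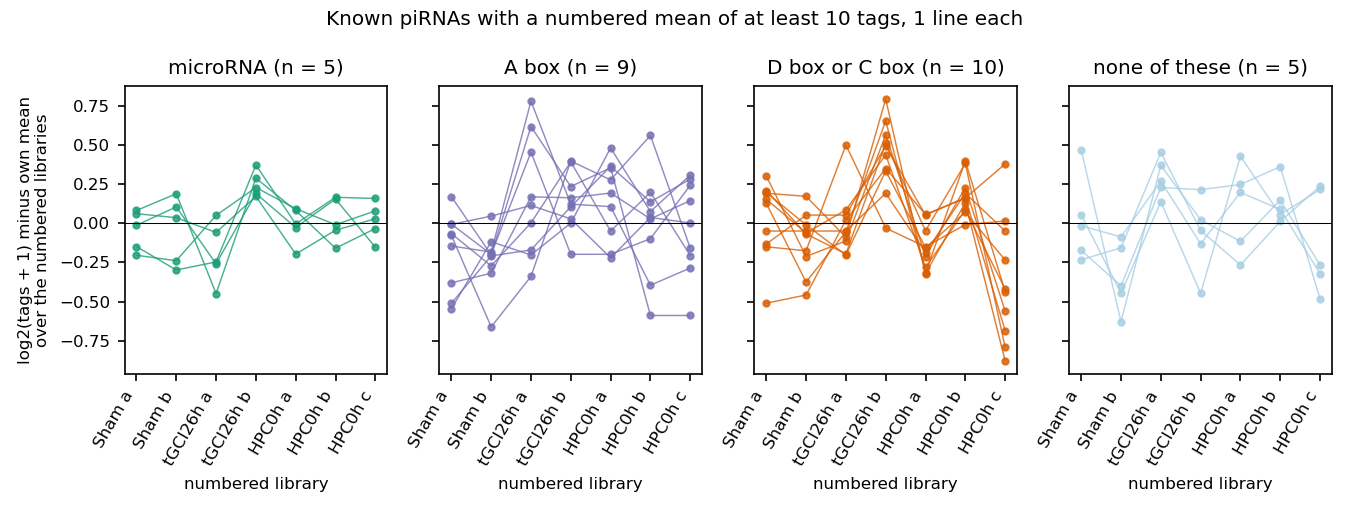
Level of each known piRNA with a numbered mean of at least 10 tags in the 7 numbered libraries (x axis), as log2(tags + 1) minus its own mean over those libraries (y axis), with 1 panel per sequence kind and 1 line per known piRNA. In the C or D box panel 7 of 10 lines peak in tGCI26h b and 7 of 10 are lowest in HPC0h c.

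Of the remaining kinds, both entries with a run of A and 5 of the 7 promoter repeats had nearly all their tags in tGCI26h u. Their means over the numbered libraries were below 1, so they passed the threshold only through tGCI26h u, and this pattern follows from that choice. rno_piR_028562, with a run of A, was at 384 tags there and at 0 or blank in the other 8 libraries, and rno_piR_030099, the other entry with such a run, was at 45 there and likewise at 0 or blank elsewhere. rno_piR_000962, the GAG repeat, was at 146 there and at 1, 0 or blank elsewhere, and its near copy rno_piR_000235 had the same 146. rno_piR_000999, rno_piR_002100 and rno_piR_006907 were each at 60 there and at 0 or blank in all others. The promoter windows searched were the 33469 RefSeq windows (GRCr8) from 250 bases before to 50 after a start. The whole of rno_piR_000962 occurred in 5 of them, that of rno_piR_000999 in 18 and that of rno_piR_006831 in 22, on either strand. Several windows of rno_piR_000999 and of rno_piR_006831 carry the same gene symbol, so these windows need not be separate places in the genome. The other 2 promoter repeats ran the other way: rno_piR_006831 was at 1 or 2 tags and rno_piR_008315 at 0 to 3 in the numbered libraries, and both were blank in Sham u and tGCI26h u. In all, 15 of the 72 were higher in tGCI26h u than in every other library, and 47 were blank there although above 0 in all 7 numbered libraries. In Sham u, 24 were above every numbered library. The counts of 15 and 24 hold the 13 known piRNAs with a numbered mean below 1, which passed the threshold through these 2 libraries. The shares of all entries with such values were not computed.
rno_piR_000999: gaucugaugcccucuucuggugugucuga
rno_piR_006831: ugguugcugggauuugaacucaggaccuc

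Small values in the unnumbered libraries need care. The lowest value of any predicted entry was 10 in Sham u and 34 in tGCI26h u, yet rno_piR_000553, rno_piR_022845 and rno_piR_025697 stood at 1, 3 and 1 in Sham u and at 3, 2 and 8 in tGCI26h u. In every numbered library the lowest predicted value was 1. Of these 3, rno_piR_000553 was among the 7 known piRNAs above 0 in all 9 libraries. The others, rno_piR_022845 and rno_piR_025697, were at 0 in Sham a.

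Together the 72 took less than 1% of the tags in all but a single library. Their share was 0.427% and 0.406% in Sham a and b, 0.486% and 0.507% in tGCI26h a and b, and 0.453%, 0.478% and 0.392% in HPC0h. It was 0.635% in Sham u and 1.00% in tGCI26h u, where 3 known piRNAs made up 80.5% of it, against 36.7% to 43.8% in the numbered libraries. The means were 0.489% ± 0.126 (SD, n = 3) in Sham, 0.665% ± 0.293 (SD, n = 3) in tGCI26h and 0.441% ± 0.0444 (SD, n = 3) in HPC0h. By a two-sided exact permutation test, whose smallest p with 3 against 3 is 0.1, tGCI26h was 0.176 percentage points above Sham (p = 0.5), HPC0h stood at -0.0483 from Sham (p = 0.8) and HPC0h stood at -0.224 from tGCI26h (p = 0.1). Without tGCI26h u the first difference was 0.00713 and the last -0.0554, and without Sham u the second was 0.0244. Whether fewer cells of a type or less RNA per cell lies behind a lower share cannot be told apart in bulk tissue.

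**Figure D4:**
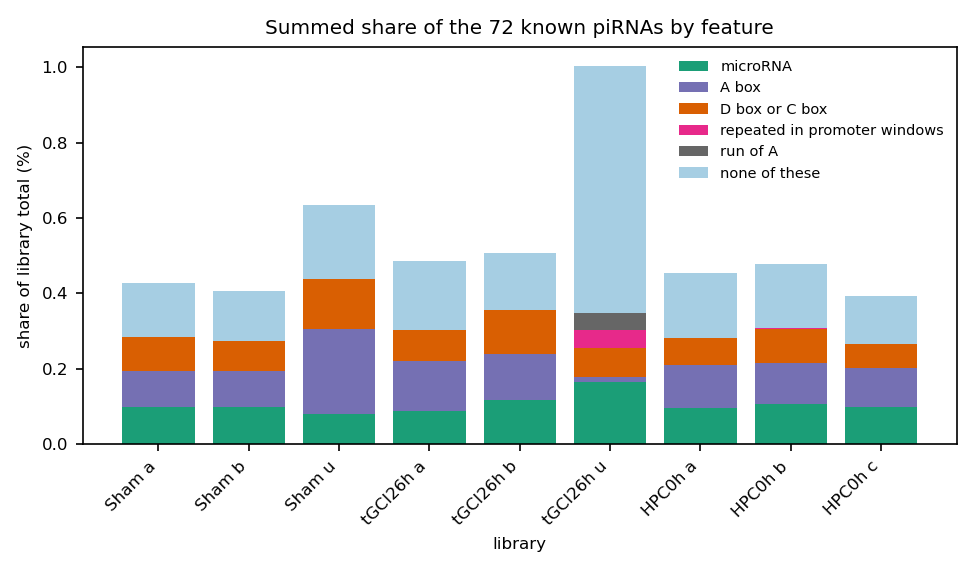
Share of the library total (y axis, %) taken by the 72 known piRNAs in each of the 9 libraries (x axis), stacked by sequence kind. The 7 numbered libraries lie between 0.392% and 0.507%, Sham u at 0.635% and tGCI26h u at 1.00%.

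Ischemia against sham, the first question of the design, gave no called known piRNA among the 72 with all 9 libraries. The test was limma on log2(value + 1) over the 2824 entries with a mean of at least 1, with Benjamini-Hochberg adjustment, and it called 0 entries of the table at an adjusted p below 0.05. At an unadjusted p below 0.05 it gave 1 of 72, against a background of 1.38% of all entries, or 0.283% for lower values alone. That known piRNA was rno_piR_003035, at 1, 1 and 75 tags in Sham (the last in Sham u), at 0, 0 and blank in tGCI26h and at 0, 1 and 1 in HPC0h. It passed the threshold on the mean only through Sham u, so its fitted difference of -2.75 on the log2 scale rests on that library and is given as a description. In the numbered libraries its mean was below 1 and it was not tested. It was also the 1 of 72 with all Sham values above all tGCI26h values (1.39%, background 2.3%), which the same choice affects. The only known piRNA with all tGCI26h values above all Sham values was rno_piR_025697 (3, 6 and 8 against 0, 2 and 1), again 1.39% against 2.27%. The median difference of the 72 was 0.04 and that of all entries 0.14.
rno_piR_003035: ugagacucuuaaucucagggucgugggu

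With the numbered libraries alone, 59 of the 72 had a mean of at least 1 and were tested among 2608 entries, and the spread was smaller. The median standard error of the log2 difference fell to 0.31 from 1.26, and the test called 22 entries of the table (0.844%) and 0 of the 59. At so low a share, 0 of 59 is near the background. The 9 names left out, picked with comparisons of these libraries in view, were not removed from the whole table. At an unadjusted p below 0.05 it gave 6 of 59, against a background of 12.6%, with 5 higher (background 10%) and 1 lower (background 2.57%). The smallest p was that of rno_piR_005595, at 236 and 235 in tGCI26h against 161 and 168 in Sham, a log2 difference of 0.52 (SE 0.07, adjusted p = 0.0895 by limma, and 0.0895 to 1 over its 25 alternatives). The microRNA entry rno_piR_015914 was at 98 and 111 against 82 and 80, a log2 difference of 0.36 (SE 0.09, adjusted p = 0.236 by limma, and 0.236 to 1 over 25 alternatives). rno_piR_000521, with a D box, was at 38 and 48 against 26 and 27, a log2 difference of 0.67 (SE 0.16, adjusted p = 0.242 by limma, and 0.242 to 1), and rno_piR_000753, at a low level, was at 3 and 4 against 1 and 0. The others were rno_piR_006831, a promoter repeat, at 2 and 2 against 1 and 1, and rno_piR_005359, with a D box, the single lower one, at 0 and 1 against 2 and 2. These 6, like all members named from the numbered libraries below, were chosen after their values were seen. For rno_piR_005595 and rno_piR_000521 the sign was negative with all 9 libraries, where Sham u held 625 and 149 tags and tGCI26h u was blank. The Sham and tGCI26h values did not overlap in 15 of 59 with tGCI26h higher (25.4%, background 27.8%) and in 2 with it lower (3.39%, background 7.71%), and 48 of 59 differed by less than 1.5-fold. The median log2 difference of the 59 was 0.22, and that of all entries 0.21.
rno_piR_000521: cagucucauaaucugaaggucCUGAg
rno_piR_000753: cugacuucggaucagaagauugcaggu

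HPC0h against Sham likewise called 0 of 72 with all 9 libraries by limma, as it did 0 of all entries, and 0 of 72 had an unadjusted p below 0.05, against 0.744% of all entries. Higher without overlap were 5 of 72 (6.94%, background 13.0%), among them 2 of the microRNA kind. These 5 were rno_piR_010469 and rno_piR_015914 of that kind, rno_piR_012322 with a C box, and rno_piR_000753 and rno_piR_008639 at 3 to 5 tags in HPC0h. For all of them but rno_piR_010469, Sham u was blank and read as 0, so the separation rests on Sham a and b. rno_piR_000746 was the only known piRNA lower without overlap (1.39%, background 0.814%). In the numbered libraries the test called 36 entries of the table (1.38%) and again 0 of the 59, which is near that low share. There, 7 of 59 had an unadjusted p below 0.05, all of them higher, against a background of 13.4% in both directions and 11.5% higher. rno_piR_005595, at 240, 214 and 232 in HPC0h against 161 and 168 in Sham, was again the closest, with a log2 difference of 0.47 (SE 0.07, adjusted p = 0.0641 by limma, and 0.0641 to 1 over its 25 alternatives). rno_piR_000521 was at 39, 42 and 49 against 26 and 27, a log2 difference of 0.68 (SE 0.15, adjusted p = 0.171 by limma, and 0.171 to 1). rno_piR_005597, of the same sequence set as rno_piR_005595, was at 54, 46 and 51 against 29 and 36, a log2 difference of 0.62 (SE 0.15, adjusted p = 0.197 by limma, and 0.197 to 1). In the fit of all 9 libraries without further scaling, which includes Sham u, the sign was negative for these 3. The other 4 of the 7 were rno_piR_000753, rno_piR_015914, rno_piR_012322 and rno_piR_000606. Non-overlapping values were found in 9 of 59 higher (15.3%, background 18.0%) and in 3 lower (5.08%, background 4.03%), and 44 of 59 differed by less than 1.5-fold. The median difference was 0.15, against 0.21 over all entries.

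By kind, the share of estimates above Sham in the numbered libraries is read against that of all 2608 entries, 78.2% for HPC0h and 70.4% for tGCI26h. In HPC0h against Sham, 13 of the 17 A box entries tested were above 0, with a median log2 difference of 0.16, 6 of the 16 C or D box entries, with a median of -0.16, 2 of the 5 microRNA entries, with a median of -0.05, 19 of the 19 without a feature, with a median of 0.24, and 2 of 2 promoter repeats, with a median of 0.47. In tGCI26h against Sham, the counts were 14 of 17 for the A box (median 0.23), 11 of 16 for the C or D box (0.18), 3 of 5 for microRNAs (0.01), 16 of 19 without a feature (0.28) and 1 of 2 for promoter repeats (0.29). None of the single differences passed the adjusted threshold, and the differences between kinds were not tested.

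HPC0h against tGCI26h compares the treated groups directly and shares its libraries with both comparisons above. The 9-library limma test called 0 of 72 and 0 of all entries, and 0 of 72 had an unadjusted p below 0.05, against 0.283% of all entries. Higher without overlap were rno_piR_000606 and rno_piR_005597, 2 of 72 (2.78%, background 5.1%), at 52, 39 and 46 against 32, 37 and blank, and at 54, 46 and 51 against 37, 45 and blank. No known piRNA of the 72 was lower without overlap (background 1.31%). The numbered libraries called 12 entries of the table (0.46%) and 0 of the 59, and 1 of 59 had an unadjusted p below 0.05 and was higher (background 7.02%, and 5.29% for higher values). That known piRNA was rno_piR_000119, at 2, 2 and 4 against 1 and 1, values close to the lowest the table can show, and with tGCI26h u at 1987 the sign is the opposite. Values did not overlap in 3 of 59 higher (5.08%, background 8.9%) and in 1 lower, rno_piR_005598 (1.69%, background 3.34%). In that comparison, 52 of 59 differed by less than 1.5-fold.

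**Figure D5:**
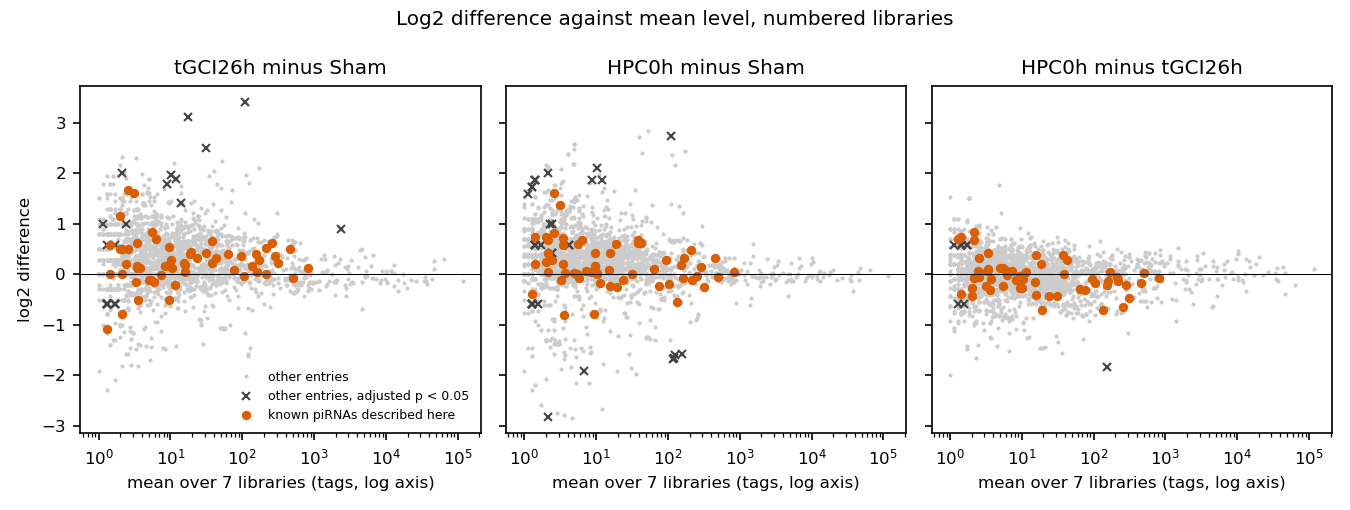
Log2 difference (y axis) against the mean over the 7 numbered libraries (x axis, normalised tags on a log axis) for the 3 comparisons, with the 59 known piRNAs tested in orange, all other entries in grey and other entries at an adjusted p below 0.05 as crosses. The orange points lie within the grey cloud, between -1.09 and 1.66 for tGCI26h minus Sham, and none of them is called.

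Close to the level that chose them, the known piRNAs were too low for a comparison. Just inside the threshold lay rno_piR_005359 (mean 1.00 tags), rno_piR_006831 and rno_piR_008315 (both 1.11), and just outside it rno_piR_007332 and rno_piR_018183 (both 0.889), followed by rno_piR_008668 and rno_piR_035901 (both 0.667). Of the 72, 15 had a mean of at least 100 tags, 35 of at least 10, and 37 lay below 10. Above 0 in all 7 numbered libraries were 54, and 7 stood at 0 or blank in all of them. The 13 with a numbered mean below 1 passed the threshold through Sham u or tGCI26h u.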

How the data were processed

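Total RNA of rat CA1 was ligated to adaptors, size-selected near piRNA length and read on an Illumina HiSeq, per the labels' protocols. The tools cutadapt 1.9.3 and Novoalign 3.02.12, are listed per the submitters' processing notes with no settings, and the genome build is not given in the sources used here. The deposited value is a score: tag counts the authors normalised and rounded, per the file headers. Headings of the P columns were assigned to HPC0h by their letter and by elimination. Blanks were read as 0, and 11 emptied lines are not reported here. Raw depth is unknown, so no counting interval is given.

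A single limma model (version 3.58.1, run in R 4.3.3) with a trend over mean level was fitted to log2(value + 1) of the 3 groups, over all entries with a mean of at least 1, with Benjamini-Hochberg adjustment over them, and was tested on simulated data. Differences are on that scale, which understates changes of low entries. Summed shares were compared by exact permutation tests. Known piRNAs were set against RefSeq mature and hairpin microRNAs (1143 entries, GRCr8; shared run of at least 18 bases) and promoter windows (whole sequence). Named are the 10 most abundant, those with an unadjusted p below 0.05, those next to the threshold, the leader of each set sharing at least 16 bases and of each kind, with exceptions marked or given to show a sequence or a count. The members and lists were chosen with earlier results of these data known. Alternatives changed the pseudocount, filter, scaling, model, treatment of blanks and libraries. Fits of the numbered libraries with another filter or scaling were added after seeing the data.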

Additional observations from a re-analysis of the deposited data

How the results depend on the processing

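No alternative called any of the known piRNAs in the 3 comparisons: over 25 settings beside the first in each, the lowest adjusted p was 0.0641. With blanks as missing values 68 of the 72 were tested. No paired analysis was possible because the columns carry no replicate number. The difference in summed share moved by more than the spread between libraries when the 9 known piRNAs left out by name were added, to 0.546 percentage points for tGCI26h minus Sham and -0.657 for HPC0h minus tGCI26h. Within that spread, tGCI26h minus Sham (0.176) went to 0.00713 without tGCI26h u, 0.0608 without rno_piR_000685 and 0.0798 with the numbered libraries alone. HPC0h minus tGCI26h (-0.224) went to -0.0554, -0.102 and -0.0554, and HPC0h minus Sham turned from -0.0483 to 0.0244 without Sham u and with the numbered libraries. Of 238 single differences (log2) under the alternatives for 10 pairs of a known piRNA and a comparison, 197 kept their sign and 41 turned, none of them past the threshold in either form. The 197 include all 18 of rno_piR_003035, which was tested only where Sham u was kept. Its kept sign rests on that library and is no sign of stability. With the numbered libraries alone, also at a mean of at least 10, rno_piR_005595 and rno_piR_000521 stood at 0.515 and 0.669 in tGCI26h against Sham, and rno_piR_005595, rno_piR_000521 and rno_piR_005597 at 0.471, 0.683 and 0.621 in HPC0h against Sham. rno_piR_000119 was at 0.831 in HPC0h against tGCI26h. In the same order, numbered libraries with median-of-ratios scaling, chosen after seeing the data, gave 0.320, 0.479, 0.233, 0.450, 0.387 and 0.792, TMM gave 0.254, 0.414, 0.212, 0.430, 0.366 and 0.818, and quantile normalisation 0.380, 0.365, 0.412, 0.452, 0.380 and 0.844. With 9 libraries, HPC0h against Sham turned for rno_piR_005595 under median-of-ratios (0.130) and TMM (0.0653), and for rno_piR_000521 under both (0.167 and 0.103) and under quantile normalisation (0.0274). Leaving out each library in turn gave -1.88 to 2.48 for rno_piR_015914 in tGCI26h against Sham, -0.504 to 0.471 for rno_piR_005595, -0.554 to 0.683 for rno_piR_000521 and -0.998 to 0.621 for rno_piR_005597 in HPC0h against Sham, and -4.15 to 0.831 for rno_piR_000119 in HPC0h against tGCI26h. The cause was not tested.

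The limits lie in the libraries. Without raw read numbers, an entry at 0 or blank cannot be told from an entry under the detection of its library. With 2 numbered libraries in Sham and in tGCI26h, the p-values rest on few libraries.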
